A study of Mus musculus with 7 samples.

Results

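The genes described here encode the protein parts of the cytosolic ribosome and were read in 7 liver samples of old female mice. They were chosen by name alone: probe sets whose platform annotation gives exactly 1 gene symbol, made of Rpl or Rps and a number, or equal to Rplp0, Rplp1, Rplp2 or Rpsa. Kinases of the Rps6k family and named pseudogenes fall outside that pattern. Where a gene had several probe sets, the one with the highest mean signal stood for it. This gave 33 of 8251 named genes on 47 probe sets, 16 genes of the large subunit and 17 of the small. RefSeq types 1 of them, Rps4l, as a transcribed pseudogene, so it does not encode a ribosomal protein by that annotation. A further 38 probe sets pair a ribosomal protein gene with other gene symbols and were left unnamed and not used here. They name 31 ribosomal protein genes, 30 of which are thus not among the 33, including Rps6, Rpl5 and Rplp1.

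Each sample was hybridised to 1 Affymetrix mouse U74Av2 array, which reads every transcript through sets of short probes near its 3′ end. The mice were phenotypically normal, of genotype +/+ or +/df, where df is the Ames dwarf allele, and ate standard pellets freely until they were killed at 24 to 26 months of age. The description field, which is also the source of the sex and age, names df/df dwarfs instead. The source names and the series title, which say normal, were followed. All 7 samples form 1 group, numbered 1, 2, 3, 4, 6, 7 and 8 as in their titles, so the data give levels and the spread between samples but no contrast. No label says outright that each RNA came from a different animal, so the spread may hold a technical part. All 6 hepatocyte markers measured were in the brightest 10% of genes. Below the floor on every array lay 4 of 7 T and NK cell markers and 2 of 3 cholangiocyte markers. A mean signal of at least 200.1 was reached by 6 of 7 macrophage and 3 of 5 endothelial markers. That level was also reached by 3 of 5 B and plasma cell, 4 of 6 stellate and matrix and 2 of 2 erythroid markers. Among these, the matrix marker Dcn read 4677 and the erythroid marker Hba-a1 read 9857. For T and NK cells only Cd4 reached it, at 252, and 0 of 3 cholangiocyte markers did. The bacterial spike-in controls had a mean log2 signal of 10.64 to 10.97 on replicates 1 to 4 and of 10.20 to 10.24 on replicates 6 to 8, so the arrays form a pair of sets.

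A ribosome is built from a large and a small subunit, each a scaffold of ribosomal RNA that carries many small, mostly basic proteins. The small subunit decodes the messenger RNA, and the large subunit joins the amino acids. Nearly all of these proteins are present in 1 copy per ribosome, so cells make them in matched amounts, in part by controlling how their messenger RNAs are translated. Those messengers typically begin with a run of C and T bases, the 5′ terminal oligopyrimidine (TOP) tract, which ties their translation to growth signals through mTOR and the RNA-binding protein Larp1. In liver, which secretes most plasma proteins, ribosomes are abundant.

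A run of at least 8 C and T bases near the annotated start was found in a minority of these genes' promoters. The share was nevertheless larger than over all promoters. RefSeq promoters (GRCm38.p6) were found for 26 of the 33 genes, 35 promoters in all. The lines below give the 20 bases before and the 20 bases from the annotated start, 5′ to 3′ on the coding strand, with the longest run of C and T in capitals. The first 5 were picked as genes that passed the filter for testing and whose run crosses the start site, so they do not stand for all members. Rpl35a and Rpl38 carry such a run as well but had signals near the floor, and Rps4x and Rps28 were bright without one at the annotated start.
Rpl7a, chr2:26910787-26910826, plus strand: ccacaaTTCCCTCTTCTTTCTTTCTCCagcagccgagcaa
Rps10, chr17:27635225-27635264, minus strand: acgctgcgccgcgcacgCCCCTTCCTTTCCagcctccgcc
Rps18, chr17:33955646-33955685, minus strand: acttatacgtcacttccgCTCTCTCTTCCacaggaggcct
Rps27, chr3:90213629-90213668, minus strand: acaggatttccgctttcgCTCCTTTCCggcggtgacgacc
Rps24, chr14:24490658-24490697, plus strand: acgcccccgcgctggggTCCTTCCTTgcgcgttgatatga
Rpl35a, chr16:33056462-33056501, plus strand: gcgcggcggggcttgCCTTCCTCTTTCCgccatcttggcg
Rpl38, chr11:114668560-114668599, plus strand: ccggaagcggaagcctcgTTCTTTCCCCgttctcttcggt
Rps4x, chrX:102189372-102189411, minus strand: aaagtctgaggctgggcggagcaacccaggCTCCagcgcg
Rps28, chr17:33824543-33824582, minus strand: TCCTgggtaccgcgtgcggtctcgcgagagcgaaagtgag

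The median longest run in this window was 6 bases over the 35 promoters, 5 over the 25 promoters of tested members and 5 over all promoters in the table. A run of at least 8 such bases was found in 11 of the 35 (31.4%), against 16.0% of all. A run of at least 10 lay in the window in 7 of the 35 promoters, against 2427 (7.39%) of all 32851 promoters in the table. The run was 21 bases long in Rpl7a, 13 in Rps10 and 11 in Rps18. Within the 300 bases from 250 before to 50 after the start, the letters CTTTCC, read on the coding strand only, were found in 48.6% of the ribosomal protein promoters and 14.1% of all. The letters ACTTCCG, the core read by ETS factors such as Gabpa, were found on either strand in 25.7% against 6.42%. AAGATGG, the core read by Yy1, was found on either strand in 22.9% against 6.34%. TATAAA, the TATA box core, was found on the coding strand in 8.57% against 8.32%. No motif contains another, though matches can share bases, and a match describes the sequence and not a bound site. Several annotated starts of 1 gene count separately, and annotated starts can lie some bases from the start in use.

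Most of these genes were bright in the old liver, and a minority could not be told from background. Of the 33 genes, 23 (69.7%) had a mean signal of at least 200.1, the level set for testing, against 54.3% of all named genes. The brightest 10% of all genes held 17 of the 33 (51.5%). The median signal was 2414 over the 33 genes and 243 over all genes. Signals of different probe sets are not on a common scale of transcript number, so these shares describe probe sets and do not order the proteins.

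**Figure D1:**
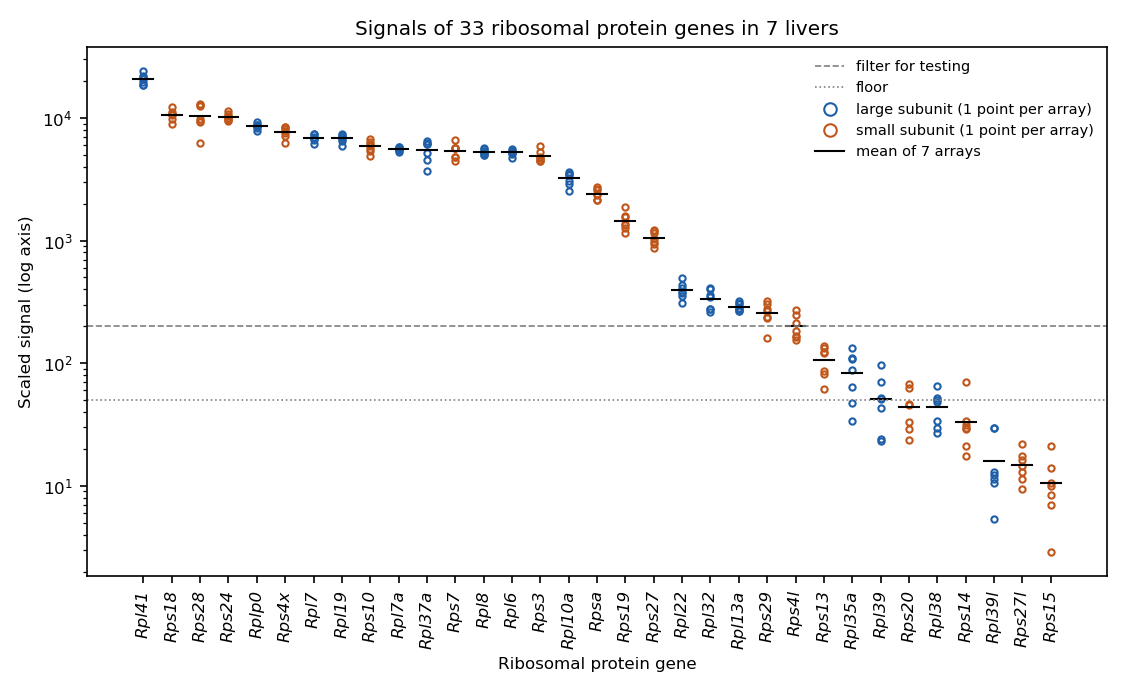
Scaled signal (log axis) of each of the 33 genes on each of 7 arrays (open points, 1 per array) with the mean over arrays (bars); large subunit genes are blue and small subunit genes orange. The dashed line marks the filter at 200.1 and the dotted line the floor at 50.0; 15 genes lie above 4000, and 10 lie below the filter.

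In the large subunit, Rpl41 had the highest signal. Its only probe set used here has the suffix _f_at, which marks probes shared within a family of sequences. Rpl41, the smallest of the ribosomal proteins (NCBI gene 67945), read lowest on replicate 8, at 18489, and highest on replicate 3, at 24115, with a median of 20726. Rplp0, the base of the stalk that recruits translation factors (NCBI gene 11837), had its lowest signal on replicate 8, at 7834, and its highest on replicate 1, at 9310, with a median of 8599. Rplp0 is often used as a reference gene, and its highest value was 1.19 times its lowest. Rpl7, Rpl19, Rpl7a, Rpl37a, Rpl8 and Rpl6 had means from 5225 for Rpl6 to 6889 for Rpl7, and Rpl10a had 3211 ± 396 (SD, n = 7). Rpl22, which is dispensable for translation in many cells and serves lymphocyte development, had 394 ± 61.0. Rpl32 had 333 ± 63.1, and Rpl13a, which also acts in silencing inflammatory messengers, had 289 ± 23.0.

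In the small subunit, Rps18, Rps28 and Rps24 had the highest signals. Rps18 (NCBI gene 20084), which sits in the head of the subunit, was also lowest on replicate 8, at 8844, and highest on replicate 1, at 12214, with a median of 10721. Rps24, mutated in some patients with Diamond-Blackfan anaemia, had 10176 ± 682 and ranged from 9438 to 11348. Rps4x, the X-linked member, had 7699 ± 769, and Rps10 and Rps7 had 5867 ± 630 and 5386 ± 750. Rps3, which lines the channel where messenger RNA enters, had 4882 ± 545, and Rpsa, also known as the laminin receptor precursor, had 2414 ± 232. Rps19, the gene first linked to Diamond-Blackfan anaemia, had 1451 ± 238, Rps27 had 1055 ± 137 and Rps29 had 257 ± 52.5.

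The 10 genes under the filter were Rpl35a, Rpl38, Rpl39, Rpl39l, Rps13, Rps14, Rps15, Rps20, Rps27l and Rps4l. Rps4l missed it narrowly, with a mean of 199.3, while Rps29 was the lowest gene to pass, at 257. Rpl39l, a paralogue of Rpl39 used in the testis, ranged from 5.40 to 29.7. Rps27l, a p53-inducible paralogue of Rps27, ranged from 9.50 to 22.0, and Rps15 reached at most 21.2. These 3 lay below the floor of 50.0 on all 7 arrays, as did 12.5% of all named genes. Rps14 was below the floor on 6 arrays, Rps20 on 5, Rpl38 on 4 and Rpl39 on 3. Ribosomes of nearly all cells contain the proteins of Rps14, Rps15, Rps20, Rpl38 and Rpl39, so a signal at the floor describes the probe set and gives no level. Of the 10 probe sets, 4 had suffixes that mark relaxed design rules or shared sequence, against 5 of the 23 that passed.

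Several genes had a second probe set with a far lower signal. Rpl7 was read at 6889 ± 429 by the chosen set, which can also read related sequences, and at 26.7 by the other. Rps24 was read at 10176 by the chosen set, whose suffix _r_at marks relaxed design rules, and at 118 by the set with no suffix. Rpl19 was read at 6808 and 141. For Rps4x the chosen set read 7699, and the other 4 read from 20.4 to 153. Of the 33 genes, 10 had several probe sets and 23 had 1.

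Before their level was taken into account, the ribosomal protein genes had a slightly smaller median spread between samples than all genes. Over the 23 tested genes, the median SD of log2 signals was 0.15, with a jackknife standard error of 0.02 over arrays, and over all 4481 tested genes it was 0.18. The steadiest was Rpl7a (NCBI gene 27176), with 5312 on replicate 8, a median of 5601 and 5827 on replicate 1, and a log2 SD of 0.05. Rpl8, whose protein lies close to the peptidyl transferase centre, ranged from 4992 to 5699, with a log2 SD of 0.07. Rplp0, Rpl6, Rpl7 and Rps24 had log2 SDs of 0.08, 0.08, 0.09 and 0.10. Without replicate 3 that of Rpl6 was 0.04. That of Rpl7a was 0.03 with the array set as a term, and that of Rpl7 was 0.05 with quantile normalization.

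Bright genes vary less on the log2 scale, so each SD was also set against the one expected at its level. The median ratio was 1.12 over the 23 genes and 0.99 over all tested genes, and 9 of the 23 (39.1%) had an SD below expectation, against 50.9% of all. The ratio was 0.76 over the 12 tested genes of the large subunit and 1.15 over the 11 of the small. In the large subunit 7 genes were below expectation and in the small 2, Rps24 and Rpsa. The difference between the subunits was not tested.

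**Figure D2:**
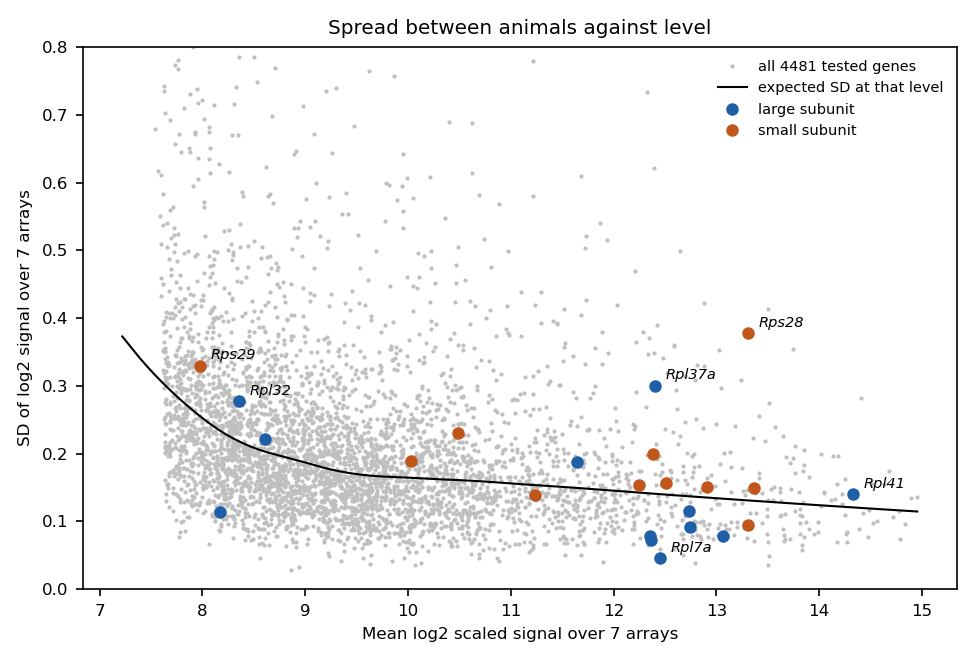
SD of log2 signal over 7 arrays against mean log2 signal, for all 4481 tested genes (grey), the 12 large subunit genes (blue) and the 11 small subunit genes (orange), with the expected SD at each level (line). Rps28 and Rpl37a lie above the line, and Rpl7a, at an SD of 0.05, well below it; 44 genes with an SD above 0.8 are outside the plot.

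Set against genes of similar signal, no ribosomal protein gene passed the test for excess spread. The F test built on limma called 0 of the 23 at an adjusted p under 0.05, and 0% of all 4481 genes. At an unadjusted p under 0.05 it gave 2 of the 23 (8.70%), against 6.72% of all genes (301), so the share lay near the background. These 2 were Rps28 and Rpl37a, with adjusted p = 0.49 and adjusted p = 0.74 by the same test. Even the muscle gene Acta1 had adjusted p = 0.0959 by this test, with a log2 SD of 2.87, 9.69 times the one expected. With so few arrays hardly any gene could pass, so the result does not show that the members lack excess spread.

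Rps28 (NCBI gene 54127), a small protein at the exit of the messenger channel, had the largest log2 SD of the 23, 0.38. Its signal was 6240 on replicate 8, with a median of 9721 and a highest value of 13057 on replicate 1. Replicates 1, 3 and 4 lay from 12475 to 13057, replicates 2, 6 and 7 from 9208 to 9721, and replicate 8 below all others. Without replicate 8 the log2 SD was 0.24. Its chosen probe set has the suffix _f_at, which marks probes shared within a family of sequences. The probe set of Rps28 with no suffix had 6272 ± 632, from 5324 to 7096, with a log2 SD of 0.15, and replicate 8 lay inside its range at 6064.

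Rpl37a (NCBI gene 19981), a zinc-binding protein of the large subunit, was lowest on replicate 4, at 3719, with a median of 6133 and a highest value of 6515 on replicate 7. Replicate 1 was next lowest at 4571, and the other 5 lay from 5195 upward. Its log2 SD was 0.30, and 0.20 without replicate 4. Rps29, a zinc-binding protein of the small subunit, was lowest on replicate 7, at 160, with a median of 266 and a highest value of 320. Its log2 SD was 0.33, and 0.18 without replicate 7, at a level where 0.26 is expected. Rpl32 had a log2 SD of 0.28, Rps19 0.23, Rpl22 0.22, Rps7 0.20 and Rps27 0.19. Rpl10a and Rps4x, at 0.19 and 0.15, were lowest on replicate 4 like Rpl37a, and without it had 0.12 and 0.09. Rps3, at 0.15, was highest on replicate 2 and had 0.10 without it. Rpl19 had 0.12, and 0.08 without replicate 6.

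**Figure D3:**
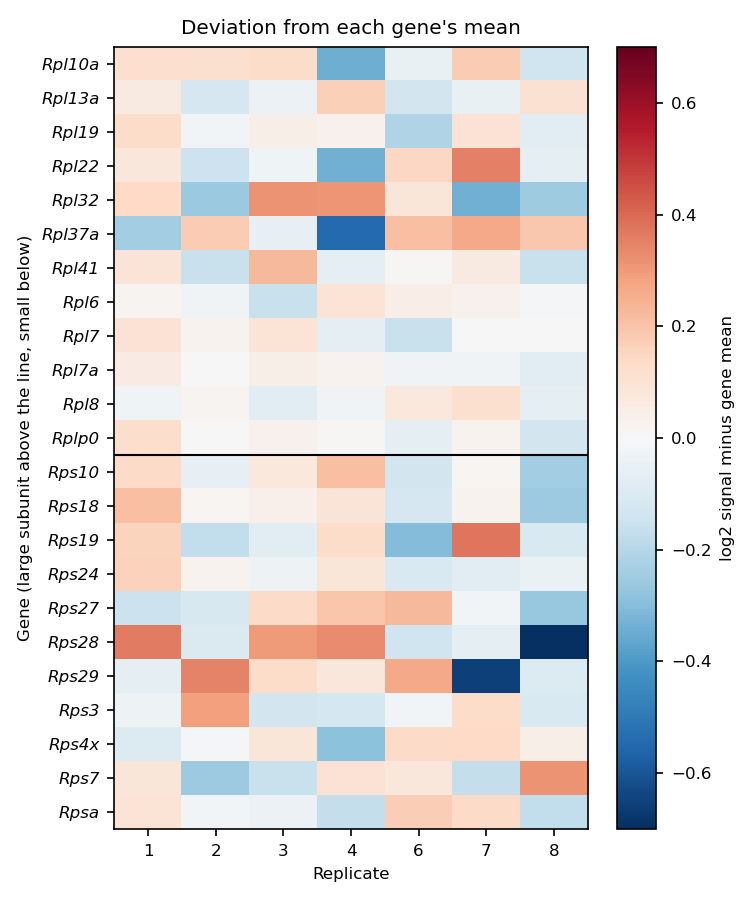
Log2 signal minus the gene's own mean (colour, from -0.7 in blue to 0.7 in red) for the 23 tested genes (rows, large subunit above the line and small below) on 7 arrays (columns). Rps28 on replicate 8 and Rps29 on replicate 7 are the darkest cells, and no column has 1 colour throughout.

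The signals of these genes showed little shared rise and fall across the 7 arrays. The median of Pearson's r over the 253 pairs of tested genes was 0.08, with a jackknife standard error of 0.10, against 0.00035 over pairs of all tested genes. With median centring of the arrays it was 0.22, and 0.03 over all genes. It was 0.07 within the large subunit, -0.02 within the small and 0.12 between them. These values describe 7 arrays, and pairs that share a gene or an array are not independent. Pairs of probe sets of 1 gene themselves had a median r of 0.22. Low values thus do not show that the transcripts lacked joint movement.

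Some pairs nevertheless ran closely together and others in opposite directions. Of the 253 pairs, 13 (5.14%) had r above 0.8, against 1.69% of all gene pairs, and 3 (1.19%) had r below -0.8, against 1.61%. Of those 13, 10 were pairs among Rpl7a, Rplp0, Rps10, Rps18 and Rps28, with r from 0.80 for Rplp0 and Rps10 to 0.97 for Rplp0 and Rps18. Each of these 5 genes was lowest on replicate 8, and all but Rps10 were highest on replicate 1. For Rps28 this holds for its _f_at probe set, which had r = 0.08 with its probe set with no suffix. The other 3 of the 13 pairs were Rpl37a and Rps4x, at r = 0.90, Rpl19 and Rps19, at 0.84, and Rpl22 and Rpsa, at 0.82. Rpl37a, Rps4x, Rpl22 and Rpsa were at or near their lowest on replicate 4. Rpl37a and Rps10 had r = -0.82, Rps24 and Rps4x -0.81, and Rps19 and Rps29 -0.84. These pairs were singled out after their values were seen.

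As a group, the tested genes were lowest on replicate 8. The mean over the 23 genes of log2 signal minus the gene's mean was -0.10 there, and -0.02 to 0.06 on the other 6 arrays. The range over arrays was 0.17, with a jackknife standard error of 0.08, and 0.072 without replicate 8. On replicate 8, 4 of the 23 genes were above their own mean, against 10 to 17 on the other arrays. It held the lowest value of 8 genes, of which 5 were of the small subunit (Rps10, Rps18, Rps27, Rps28 and Rpsa). Rps7 was an exception and had its highest value there, 6635.

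Genes of both subunits were low on that array, where 2 of 12 large and 2 of 11 small subunit genes were above their own mean. The small subunit mean deviation was -0.15 on replicate 8 and -0.02 to 0.08 on the others. Leaving out Rps28 gave -0.09, with the next lowest array at -0.01, and reading Rps28 from its probe set with no suffix also gave -0.09. The large subunit mean was -0.06 on replicate 8, and replicate 4 was as low at -0.06, while replicate 7 was highest at 0.06. The difference between the subunits on replicate 8 was not tested. The mean over all 4481 tested genes was 0.01 on replicate 8. That array belongs to the set with the lower spike-in signal and also had the lowest summed signal of the 6 hepatocyte markers, 128167 against 131933 to 164969 on the others. Its ratios of 3′ to 5′ signal, 0.834 for Gapdh and 1.69 for actin, lay inside the range of the others. The part of the array set and of the marker sum in the low values was not tested. Replicate 1, highest for 7 of the 23 genes, had a summed skeletal muscle marker signal of 8948 and replicate 2 one of 4003, against 663 to 876 on the others. Acta1 alone read 5991 on replicate 1 and 2034 on replicate 2. Atp2a1, Myl1, Tnnt3 and Tnni2 were also highest on replicate 1, while Ckm and Myh4 were lowest there, at 144 and 103. The part of the muscle markers in the values of replicate 1 was not tested. In whole liver RNA, fewer cells of a type and less RNA per cell cannot be told apart.

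**Figure D4:**
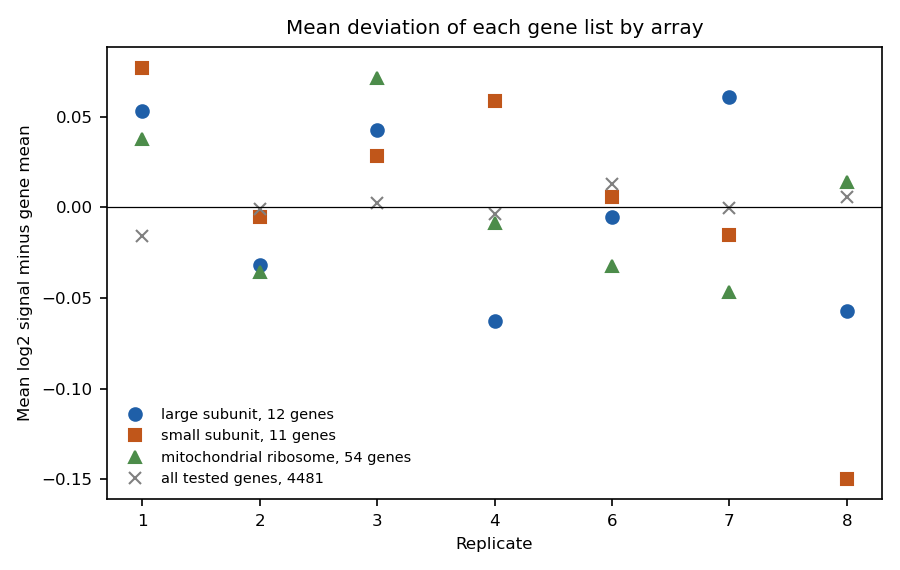
Mean log2 signal minus gene mean on each replicate for the 12 large subunit genes (circles), the 11 small subunit genes (squares), 54 mitochondrial ribosomal protein genes (triangles) and all 4481 tested genes (crosses). The small subunit point at -0.15 on replicate 8 is the lowest, and all tested genes stay within 0.02 of 0.

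Different probe sets of the same gene gave different orders of the samples. Rpl10a, Rpl22 and Rps28 each had 2 probe sets past the filter. For Rpl10a the 2 had r = -0.67 (exact two-sided permutation p = 0.102, adjusted p = 0.306 over 3 genes) and rho = -0.64 (exact permutation p = 0.139, adjusted p = 0.417). With the 2 arrays farthest from the median of the chosen set left out, r was -0.41. Replicate 4 was the lowest array on the chosen set of Rpl10a, at 2519, and the highest on the other, at 1873. For Rps28, r was 0.08 (exact permutation p = 0.854, adjusted p = 0.996) and rho was 0.11 (exact permutation p = 0.840, adjusted p = 0.840). With the 2 arrays farthest from the median of its set with no suffix left out, r was 0.54. Replicate 8, the lowest array of its chosen set, stayed in. For Rpl22, r was -0.0021 (exact permutation p = 0.996, adjusted p = 0.996) and rho was 0.18 (exact permutation p = 0.713, adjusted p = 0.840). With the 2 arrays farthest from the median of the set not chosen left out, r was -0.42. Over all 588 genes with several probe sets past the filter, the median r was 0.22 and 33.5% of 758 pairs were negative.

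**Figure D5:**
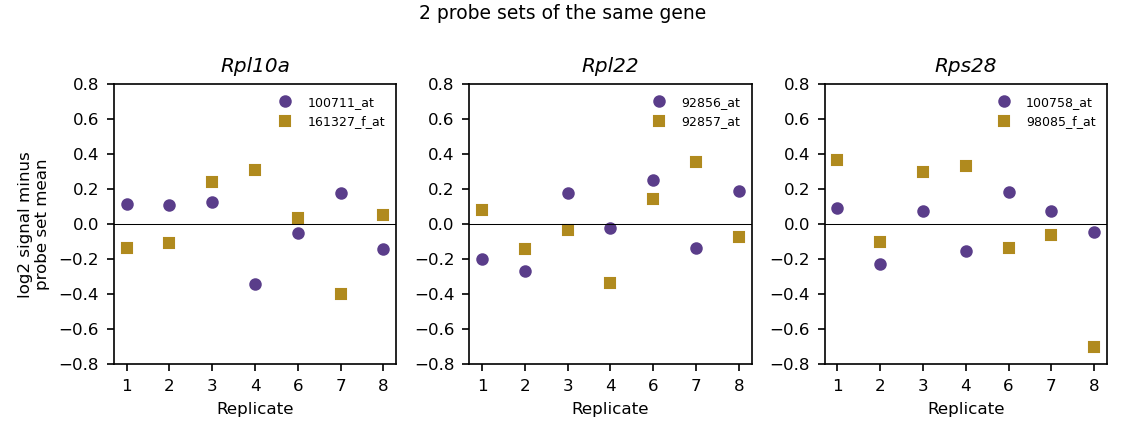
Log2 signal minus the probe set's mean on each replicate for the 2 probe sets of Rpl10a, Rpl22 and Rps28 that passed the filter (circles and squares, 1 point per array). For Rpl10a the 2 sets lie on opposite sides of 0 on replicates 1, 2, 4, 6, 7 and 8.

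Other genes of translation and of ribosome supply were read the same way. Of 13 listed ribosome-linked genes, 10 were on the array and 8 were tested, of which 0 passed. At an unadjusted p under 0.05 there was 1 (12.5%), the elongation factor subunit Eef1b2, against 6.72% of all tested genes. The median log2 SD of the 8 was 0.17, against 0.15 for the ribosomal protein genes, and the difference was not tested. Eef1a1, which brings aminoacyl-tRNA to the ribosome, ranged from 19637 on replicate 8 to 24363, with a median of 21814. Tpt1, a growth-related protein whose messenger also has a TOP tract, ranged from 17857, also on replicate 8, to 21579, with a median of 20080. Eef2, which moves the ribosome along, had 7156 ± 499. Pabpc1, which binds poly(A) tails, had 3489 ± 576 and was highest on replicate 8, at 4231. Naca, which binds emerging chains, had 1657 ± 292. The mean deviation of the 8 tested genes was -0.02 on replicate 8 and lowest on replicate 7, at -0.17. Eef1b2 fell to 97.2 on replicate 7 against a median of 256, and its log2 SD of 0.67 became 0.37 once replicate 7 was left out. Its chosen probe set has the suffix _r_at, and with only probe sets that have no suffix the log2 SD was 0.26. The log2 SD of Naca was 0.24, and 0.15 without replicate 1.

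The mitochondrial ribosome, a separate machine that translates the mitochondrial genome, had 61 genes on the array. Of its 54 tested genes, 0 passed and 0 had an unadjusted p under 0.05, against 6.72% of all tested genes. Its median log2 SD was 0.17. Its brightest were Mrpl52 at 3105 ± 161, Mrpl18 at 2280 ± 247, Mrpl51 at 1977 ± 205 and Mrps34 at 1608 ± 216, and its widest were Mrps22 and Mrps10, with log2 SDs of 0.33 and 0.33. Its mean deviation was highest on replicate 3, at 0.07, and lay at 0.01 on replicate 8.

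Of 44 listed ribosome assembly factors, 39 were on the array and 28 were tested, with 0 passing. At an unadjusted p under 0.05 there was 1 (3.57%), Imp4, against 6.72% of all tested genes. The median log2 SD of the 28 was 0.17. Nop10, a part of the particle that modifies ribosomal RNA, had 2519 ± 322, the nucleolar proteins Ncl and Npm1 had 1829 ± 75.6 and 1649 ± 126, and Emg1 had 1217 ± 56.3. Imp4 ranged from 214 on replicate 3 to 586 on replicate 2, with a median of 374, a log2 SD of 0.48, and 0.24 with all its probe sets averaged. Gnl3, a nucleolar GTPase, had a log2 SD of 0.34. Their mean deviation was 0.09 on replicate 8, the highest of the 7 arrays, where the ribosomal protein genes were lowest. Replicate 6 was next at 0.08, where the ribosomal protein mean was -0.00014. The assembly factor mean was 0.06 over the arrays with lower spike-in signal and -0.04 over the others. The part of the array set in these values was not tested.

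Of 23 listed regulators of ribosome supply, 17 were on the array and 13 were tested, with 0 passing. At an unadjusted p under 0.05 there were 0, against 6.72% of all tested genes. The median log2 SD of the 13 was 0.21. Eif4ebp2, a repressor of cap-dependent translation that mTOR switches off, had 4821 ± 463, and Larp1 had 1767 ± 106. Tsc2, an inhibitor of mTOR, and the kinase Akt1 had 795 ± 44.6 and 741 ± 112. The cell cycle inhibitor Cdkn1a and the transcription factor Sp1 had the widest spread, with log2 SDs of 0.44 and 0.44.

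Control probe sets for the 18S ribosomal RNA, the scaffold of the small subunit, spanned a wide range. The 3′ set ranged from 141 on replicate 6 to 684 on replicate 3, with a median of 478. The 5′ set ranged from 11.9 on replicate 1 to 175 on replicate 3. On replicates 1 and 6 the 3′ set read 159 and 141, and on the other 5 arrays 452 or more. Replicate 8, lowest for the ribosomal protein genes, had 492. The messenger RNA is what these arrays label by design, so these values give no amount of ribosomal RNA.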

How the data were processed

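The values are intensities deposited by the authors, 1 per probe set and array, on a linear scale. Per the labels, arrays were read with a Hewlett-Packard GeneArray scanner. Image software, scaling target: not given in the sources used here. Trimmed by 2% at each end, every array had a mean of 500.36 to 500.39, so the values were already scaled. Precision is limited by there being 7 arrays.

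Of 12488 probe sets, 10833 outside the 66 controls have 1 gene symbol, and 10817 matched the RefSeq gene table (GRCm38.p6) by gene ID, which changed 0 symbols. Arrays were set to 1 trimmed mean, values under 0.1 of it (50.0) were raised to it, and log2 was taken. The test took genes whose mean reached 0.4 of it (200.1). Signals printed are scaled values before the floor.

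Spread was tested with limma 3.58.1 (R 4.3.3): an intercept-only fit, and an upper-tail F test of each variance against a robust prior that follows the level (5.61 prior degrees of freedom), adjusted by Benjamini-Hochberg over 4481 genes. The step was tested on simulated data. Jackknife errors leave out 1 array at a time. Correlations of probe sets used all 5040 pairings. Python 3.11.15, numpy 2.4.6, pandas 2.3.3, scipy 1.17.1 and matplotlib 3.10.9 were used.

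The members and lists were chosen with earlier results of these data known. Named genes were the 8 widest, 8 steadiest and 8 brightest members, members under the filter, a list of members by role (such as Rplp0, Rpsa, Rpl22 and Rps27l), the 5 lowest correlations between tested probe sets of a member (3 exist), and from each other list the 4 brightest and the 2 widest. The alternatives were scaling, floor, filter, probe set, prior, array set and each array left out.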

Additional observations from a re-analysis of the deposited data

Results flagged for a closer look

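The mean deviation of the 11 tested small subunit genes was flagged for replicate 8, which lay far from the other 6 arrays. The gap to the next lowest array was 0.592 of the whole range, above Dixon's critical value for 7 samples. The values were -0.15 on replicate 8 and -0.02 on the next lowest array, replicate 7. Among 26 values checked in this way, it was 1 flag, and chance flags about 1 in 20. None of the 23 single genes met that mark, Rps28 included. Of 12 other ways of processing that keep all 7 arrays, 6 lost the flag: the share was 0.332 with the array set as a term, 0.352 with median centring, 0.384 without the filter, 0.433 and 0.465 with the filter at 0.2 and 0.8 of the trimmed mean, and 0.508 with only probe sets that have no suffix. The other 6 kept it, with shares up to 0.675. Among readings chosen after seeing the data, leaving out Rps28 kept the flag at 0.586, and reading Rps28 from its probe set with no suffix lost it at 0.512.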

How the results depend on the processing

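No ribosomal protein gene passed the test of spread under any of the 21 alternatives. The smallest adjusted p of a member ranged from 0.222, without the filter, to 0.964, without the trend in the prior. No alternative called more than 1 of all genes tested, so these outcomes say little about the members. The median log2 SD kept within its jackknife error, from 0.14 to 0.16. The median pairwise correlation was 0.22 with median centring of the arrays, and 0.01 to 0.14 with each array left out. The range of the group mean over arrays was 0.072 to 0.17 with each array left out, the lowest without replicate 8. It was 0.12 with quantile normalization, with all probe sets averaged and with only probe sets that have no suffix, and 0.23 with median centring. Replicate 8 was the lowest array in each of these 4 settings. The highest was replicate 7 in place of 1 with probe sets averaged or only those with no suffix. The small subunit mean on replicate 8 lay between -0.16 and -0.09 under all alternatives, the smallest in size with Rps28 read from its other probe set. Averaging all probe sets moved the log2 SD of 4 members by more than 1.5 times: Rps28 to 0.17, Rpl10a to 0.09, Rpl19 to 0.40 and Rps4x to 0.24. With only probe sets that have no suffix, Rps28 had 0.15, Rps24 0.24 and Rpl7 0.17. No paired analysis was possible because there is only 1 group. Signals under the filter limit what can be said of 10 of the 33 genes.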
